A study of Homo sapiens with 8 samples.

Results

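The genes that commit a cell to S phase and then copy its DNA were examined as a set of 45 in cultured breast cancer cells given a bacterial signalling molecule. The set holds 10 G1/S regulators, 5 origin licensing genes, 11 genes of the replicative helicase, 14 of the polymerases and the replication fork, and 5 of nucleotide supply. They were taken by gene name, and all 45 have a row among the 16383 genes of the deposited count table and a row in the deposited FPKM table. The cells were MDA-MB-231, an established human triple-negative breast cancer line of mesenchymal character, so that every value comes from 1 line. In 4 libraries the cells had received 5 µM c-di-GMP, a second messenger of bacteria built of a pair of guanosine units in a ring, which mammalian cells bind through STING. In the other 4 they had received 1×PBS as vehicle, and both treatments lasted 24 h in serum-containing DMEM. The study's title links c-di-GMP to metastasis and to PSMD3, a proteasome subunit, apart from STING.

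In a cell leaving G1, cyclin D with CDK4 or CDK6 and then cyclin E with CDK2 phosphorylate RB1, which frees the E2F transcription factors to switch on the genes of DNA synthesis. Before that, the origin recognition complex, CDC6 and CDT1 load the MCM helicase onto origins, and geminin blocks reloading once S phase has begun. CDC45 and the GINS complex then activate the helicase, DNA polymerases with their clamp and clamp loader extend the new strands, and ribonucleotide reductase and the thymidylate enzymes supply the nucleotides. Many of these genes are transcribed in a wave at the G1/S boundary, so that their RNA level in a growing culture is often read as a measure of how many cells are cycling. In RNA from a whole culture, fewer cells in S phase and less RNA per cell cannot be told apart.

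Each library had a total of 16151360 to 18040010 counts, and 3 counts, taken as the floor, were worth 0.156 to 0.268 CPM (counts scaled to library size), for counting error only. Levels below are CPM after TMM scaling of all 8 libraries, a scaling to effective library size. Vehicle library 3 stood apart. Its log2 CPM correlated with those of the other libraries at 0.849 to 0.867 across genes, which are not independent replicates, while every other pair reached at least 0.989, and its scaling factor was 0.664 against 1.05 to 1.07. Results are therefore given with all 8 libraries and with the 7 that leave vehicle library 3 out, and below a level with vehicle, given without a library number, is that of libraries 1, 2 and 4 in this order. Separate cultures are not stated for the libraries of a group, and a p-value then reflects only how these libraries scatter, which could be technical. Of the markers of the line, VIM, CD44, AXL and CAV1 lay between 490.5 and 1255 CPM in the 7 libraries and SPARC at 0.162 to 0.966 CPM. Of the epithelial markers held to be low in it, CDH1 lay at 1.87 to 3.88, EPCAM at 11.1 to 14.99 and KRT19 at 299.9 to 389.8 CPM in the 7 libraries. In vehicle library 3 markers of both kinds went up and down. There KRT19 stood at 1415, EPCAM at 58.8 and CDH1 at 1.61 CPM. VIM stood at 2196 CPM there (606.6 to 765.8 in the 7 libraries) and CD44 at 1042 CPM (795.0 to 838.3). AXL stood at 414 CPM (1065 to 1255) and CAV1 at 358 CPM (490.5 to 623.8). PECAM1, of endothelial cells, stood at 8.00 to 9.66 CPM and COL1A1, of fibroblasts, at 15.8 to 21.5 CPM in the 7 libraries.

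c-di-GMP was set against vehicle to ask whether this machinery changed, and in the 7 libraries more of it rose than fell, by small amounts. Of the 45 genes, 17 rose and 4 fell with c-di-GMP, against 13.5% of all 15647 genes tested higher, 16.2% lower and 29.6% in either direction (edgeR quasi-likelihood test, Benjamini-Hochberg adjusted p under 0.05 over all genes). The 17 that rose were CDK2, RB1, E2F3, ORC6, CDC6, GMNN, MCM6, GINS1, PCNA, RFC3, RFC4, POLA1, PRIM1, RPA1, RRM1, RRM2 and DUT, and the 4 that fell were E2F1, MCM2, POLD1 and LIG1. The log2 fold changes (c-di-GMP over vehicle) ran from -0.37 for POLD1 to 0.38 for RRM2, with a median of 0.12 over the 45 genes and 0.0014 over all genes tested. The c-di-GMP libraries lay wholly above the 3 vehicle libraries for 23 of the 45 genes and wholly below for 5, against 17.3% and 18.3% of all genes. Without vehicle library 4 as well, 11 rose and 6 fell, against 1668 and 2337 of 15914 genes. Without c-di-GMP library 4, 12 rose and 4 fell, against 1354 and 2171 of 15527 genes. Without vehicle library 1, 17 of the 45 rose and 3 fell, against 1551 and 1889 of 15906 genes.

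**Figure D1:**
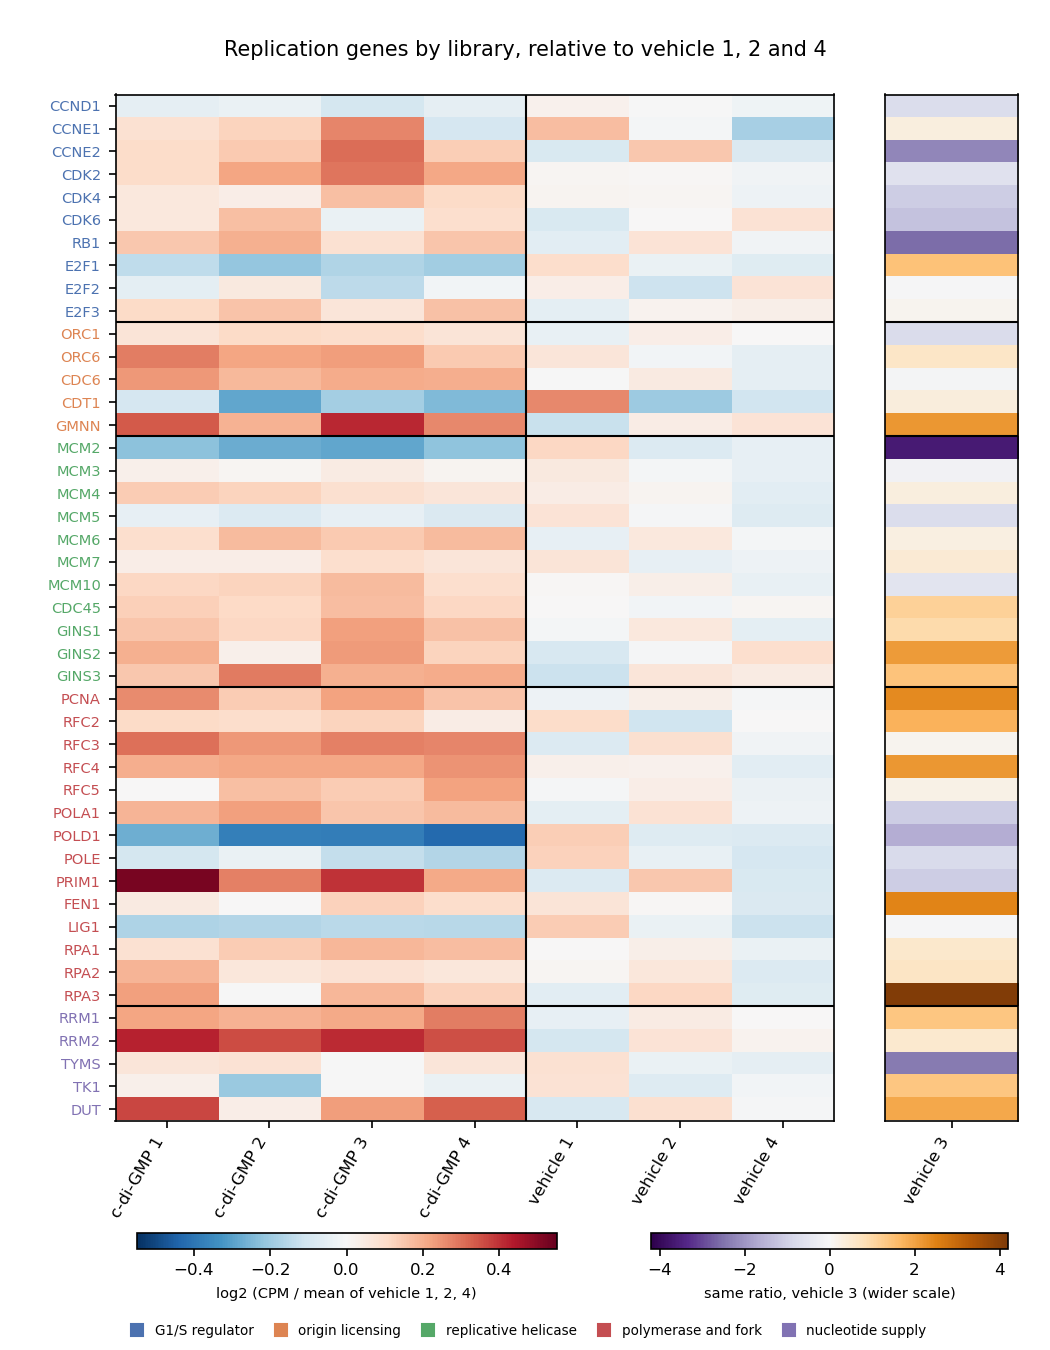
Each cell is the log2 ratio of a gene's CPM in 1 library to its mean in vehicle libraries 1, 2 and 4, for the 45 genes in order of role (label colour), with the 4 c-di-GMP libraries left of the vehicle libraries. Most rows are red under c-di-GMP, and MCM2, POLD1, E2F1, LIG1, CCND1, CDT1, MCM5 and POLE are blue in all 4 libraries. Vehicle library 3, drawn apart on a wider scale, runs from -3.63 for MCM2 to 4.15 for RPA3.

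With all 8 libraries none of the 45 passed the threshold, as with 0.0% of the 15415 genes tested by edgeR, and 2 of the 45 had an unadjusted p under 0.05, against 6.23% of all genes. Those 2 were CDC6 (log2 fold change 0.22 ± 0.088 SE, unadjusted p = 0.0362, adjusted p = 0.623) and RFC3 (0.24 ± 0.095, unadjusted p = 0.0341, adjusted p = 0.623). The log2 fold changes were positive for 24 genes and negative for 21, with a median of 0.023 against -0.049 over all genes, and on library totals without TMM the median of all genes moved to 0.084. The 8-library groups did not overlap, with c-di-GMP higher, for 9 genes and, with c-di-GMP lower, for 2, against 6.93% and 7.29% of all genes. DESeq2 tested 40 of the 45 genes and called CDC6 alone, higher (0.23, adjusted p = 0.0116). Of all 15415 genes it called 0.227% higher, 0.642% lower and 0.869% in all. With limma-voom none of the 45 was called. The fitted variation between replicates, as a coefficient, was 36.3% with the 8 libraries and 4.52% with the 7. In limma-voom with quality weights, which let each library count according to its spread, 24 of the 45 were higher and 3 lower over all 8 libraries, against 17.1% and 18.2% of all genes.

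GC content, the share of G and C bases in a gene's longest transcript, moved with these differences. Across the 45 genes it ran against the log2 fold change at a Spearman correlation of -0.772, and at -0.589 across 15643 genes tested, from the same 7 libraries in each case. The 4 genes that fell had 56.4% to 64.97% GC. Within a GC band the median of the set was above that of all genes: 0.19 against 0.10 at 40 to 45% GC (10 of the 45 genes against 3427 genes of the table), 0.14 against 0.033 at 45 to 50% (12 against 2819), and 0.088 against -0.065 at 50 to 55% (9 against 2525). At 55 to 60% the medians were -0.087 for the set and -0.15 for all genes, and at 60 to 65% they were -0.19 and -0.28. The GC trend of each library was therefore also taken out of the fit. That step removes any difference that runs with GC content, whatever its source, and the source was not tested.

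After that correction 15 of the 45 genes were higher with c-di-GMP and 0 lower, against 8.58% and 6.62% of all genes, with a median log2 fold change of 0.11. On the corrected values the c-di-GMP libraries lay wholly above the 3 vehicle libraries for 23 genes and wholly below for 2, against 12.9% and 10.7% of all genes. The 9 genes higher both before and after it were CDK2, ORC6, CDC6, GMNN, PCNA, RFC4, RPA1, RRM1 and RRM2. Another 6 passed only after it: CDK4, MCM7, CDC45, RFC2, FEN1 and TK1. When a trend on transcript length was removed as well, 11 were higher and 0 lower, against 7.43% and 5.68% of all genes, and CDK2, CDC6, RPA1, RRM1 and RRM2 were the 5 that rose in all 3 fits. CDK2, RRM1 and RRM2 also kept their call with each of the 7 libraries left out, with and without the GC correction. Without vehicle library 4 the GC-corrected fit had 8 of the 45 higher and 0 lower, against 883 and 668 of 15914 genes.

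**Figure D2:**
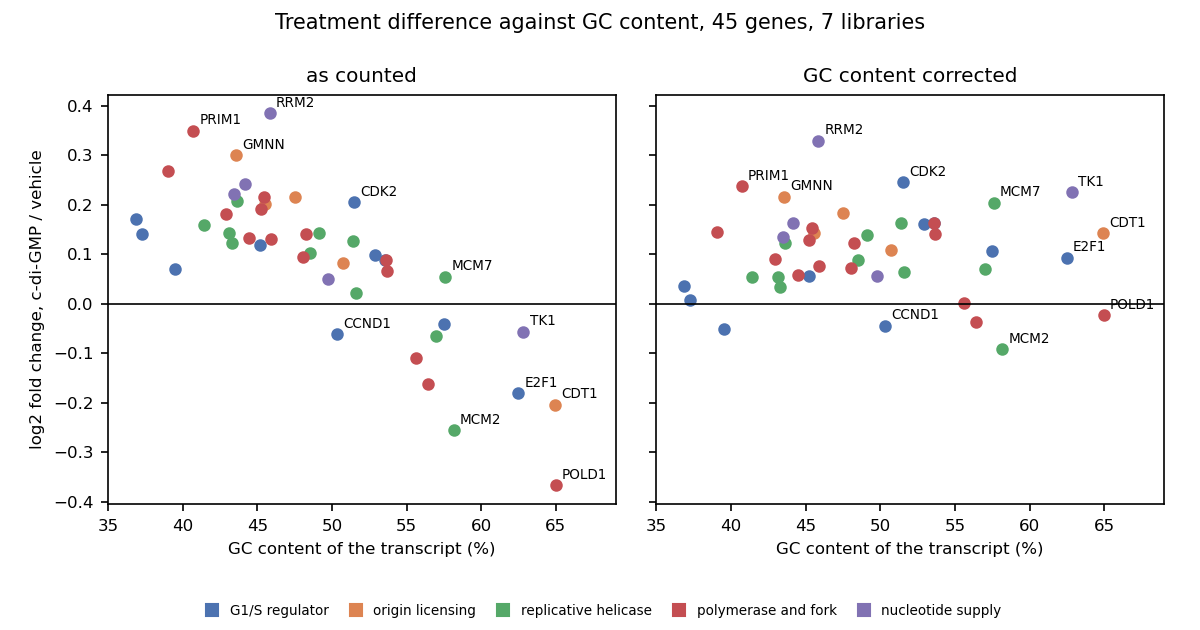
Each point is 1 of the 45 genes, with the GC content of its longest transcript (%) on the x axis and its log2 fold change (c-di-GMP over vehicle, 7 libraries) on the y axis, as counted on the left and after the GC correction on the right, coloured by role. The downward slope on the left (Spearman -0.772) is taken out by the correction itself on the right (0.077). There TK1 and MCM7 are among the 6 highest genes and the lowest gene is MCM2 at -0.09.

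Promoters of 5 genes that the comparison turns on are printed here, 2 that rose with an E2F site (CDC6, MCM6), the one with the largest rise (RRM2), and 2 that fell before the GC correction (E2F1, MCM2). Each window runs from 250 bases before to 50 bases after a RefSeq start on GRCh38.p14, 5′ to 3′ on the gene's own strand. Capitals mark letters of an E2F site on either strand (TTTCCCGC, TTTCGCGC, TTTGGCGC or TTTGCCGC, which may overlap one another).
CDC6 (chr17:40287629-40287928, plus strand): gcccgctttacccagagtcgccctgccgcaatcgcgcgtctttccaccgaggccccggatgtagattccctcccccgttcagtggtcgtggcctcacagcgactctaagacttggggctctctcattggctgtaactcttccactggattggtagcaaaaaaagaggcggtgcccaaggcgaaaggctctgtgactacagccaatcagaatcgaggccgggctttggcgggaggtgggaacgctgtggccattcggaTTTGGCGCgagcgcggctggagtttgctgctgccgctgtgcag
MCM6 (chr2:135876394-135876693, minus strand): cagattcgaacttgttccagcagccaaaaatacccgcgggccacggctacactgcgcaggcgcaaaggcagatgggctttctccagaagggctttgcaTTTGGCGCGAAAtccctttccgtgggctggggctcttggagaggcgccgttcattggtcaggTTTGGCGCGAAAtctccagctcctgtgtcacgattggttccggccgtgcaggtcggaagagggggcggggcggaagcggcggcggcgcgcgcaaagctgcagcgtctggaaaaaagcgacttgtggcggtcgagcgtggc
RRM2 (chr2:10122489-10122788, plus strand): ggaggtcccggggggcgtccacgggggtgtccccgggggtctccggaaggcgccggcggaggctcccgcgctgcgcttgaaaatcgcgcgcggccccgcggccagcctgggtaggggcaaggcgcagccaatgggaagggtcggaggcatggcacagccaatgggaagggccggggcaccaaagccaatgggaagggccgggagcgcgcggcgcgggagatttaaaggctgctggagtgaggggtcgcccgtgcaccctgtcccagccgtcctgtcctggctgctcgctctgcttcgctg
E2F1 (chr20:33686336-33686635, minus strand): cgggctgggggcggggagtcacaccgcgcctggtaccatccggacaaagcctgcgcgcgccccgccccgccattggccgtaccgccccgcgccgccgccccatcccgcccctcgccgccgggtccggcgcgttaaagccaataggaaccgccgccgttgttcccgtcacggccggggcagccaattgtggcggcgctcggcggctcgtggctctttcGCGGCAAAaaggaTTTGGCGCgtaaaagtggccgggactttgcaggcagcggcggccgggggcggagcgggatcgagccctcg
MCM2 (chr3:127598161-127598460, plus strand): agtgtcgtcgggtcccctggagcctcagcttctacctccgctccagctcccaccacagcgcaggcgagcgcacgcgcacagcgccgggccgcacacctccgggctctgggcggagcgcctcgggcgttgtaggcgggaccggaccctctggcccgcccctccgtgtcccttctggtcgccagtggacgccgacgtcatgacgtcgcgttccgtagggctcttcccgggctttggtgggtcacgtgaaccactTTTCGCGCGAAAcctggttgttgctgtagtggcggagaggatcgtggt

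A RefSeq window was found for 38 of the 45 genes, 10 of them with more than 1. Of the 38, 20 (52.6%) held an E2F site in a window, against 6.52% of the 10933 listed genes with a window. By role that was 7 of 9 helicase genes, 3 of 5 licensing genes, 5 of 12 polymerase and fork genes, 3 of 7 G1/S regulators and 2 of 5 nucleotide supply genes. MCM6 has 2 places, 152 and 90 bases before the start, where an E2F site on each strand overlaps, MCM2 has such a pair just after its start, and RRM2 and POLD1 have none in either of their windows. E2F letters stood in 9 of the 16 genes with a window that rose in the 7 libraries, in 3 of the 4 that fell and in 8 of the 18 that did not pass. After the GC correction described above they stood in 4 of the 14 that were higher and in 16 of the 24 that did not pass. The CCAAT box (CCAAT), which binds NF-Y, was in 22 of the 38 (57.9%), against 42.8% of listed genes, and RRM2 carries it 3 times in the window above. The letters of the cell cycle homology region (TTTGAA) were in 3 of the 38 (7.89%), against 13.8%. A match is a run of letters and not a bound site.

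Among the G1/S regulators, 3 of 10 rose and 1 fell in the 7 libraries, and 2 rose with the GC correction, beside 13.5% of all genes higher and 16.2% lower as counted and 8.58% higher after it. CDK2, the kinase partner of cyclin E (chr12:55966769-55972784 on GRCh38, plus strand), had 62.99, 68.1, 72.02 and 68.1 CPM in c-di-GMP libraries 1 to 4, against 59.2, 58.9 and 57.9 CPM in vehicle libraries 1, 2 and 4 and 38.4 CPM in vehicle library 3. Its log2 fold change was 0.21 ± 0.052 (SE, edgeR, adjusted p = 0.00377) and 0.25 ± 0.044 (SE, edgeR, adjusted p = 0.000365) after the GC correction. All 4 c-di-GMP libraries lay above all 4 vehicle libraries.

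E2F1, the best-known activator of replication genes (chr20:33675683-33686404, minus strand), had 126, 119.9, 124 and 122 CPM with c-di-GMP, against 149, 136 and 133 CPM with vehicle and 383 CPM in vehicle library 3. The c-di-GMP libraries were the lowest of all 8, and the log2 fold change over 7 libraries was -0.18 ± 0.046 (SE, edgeR, adjusted p = 0.004). With 62.5% GC, E2F1 is among the richest of the set, and after the GC correction its log2 fold change was 0.09 ± 0.033 (SE, edgeR, adjusted p = 0.0589), with c-di-GMP libraries above the vehicle ones. E2F3, a related activator, had 94.3, 97.7, 91.9 and 98.01 CPM with c-di-GMP, against 84.4, 88.9 and 89.8 CPM with vehicle and 94.1 CPM in vehicle library 3. It rose narrowly (adjusted p = 0.0498 by edgeR) and kept its call in 1 of the 7 fits that leave out a library. E2F2, an activator of the same kind, was among the lowest genes of the set, at 13.2 to 15.2 CPM with c-di-GMP and 13.5 to 15.4 CPM in vehicle libraries 1, 2 and 4.

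RB1, the restrainer of E2F, had 90.4, 93.4, 86.5 and 90.7 CPM with c-di-GMP, against 78.4, 85.96 and 80.5 CPM with vehicle and 13.8 CPM in vehicle library 3. It rose by 0.14 on the log2 scale (adjusted p = 0.0256, edgeR), but kept its call in 2 of 7 leave-out fits and stood at 0.0083 after the GC correction. All 4 c-di-GMP libraries were above every vehicle library.

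The cyclins did not pass the threshold. CCND1, cyclin D1 (chr11:69641087-69654474, plus strand), had 756, 763, 730.0 and 755 CPM with c-di-GMP, against 794, 782 and 769.7 CPM with vehicle and 466 CPM in vehicle library 3. The c-di-GMP libraries lay just below vehicle libraries 1, 2 and 4, with a log2 fold change of -0.06 (95% interval -0.14 to 0.02). For cyclin E1, CCNE1 had 14.3, 14.7, 16.3 and 12.7 CPM with c-di-GMP, against 15.2, 13.4 and 11.9 CPM with vehicle and 16.9 CPM in vehicle library 3. CCNE2, cyclin E2, had 18.5, 19.1, 21.4 and 19.00 CPM with c-di-GMP, against 16.3, 19.2 and 16.4 CPM with vehicle and 3.75 CPM in vehicle library 3. The groups overlapped for both cyclins E, with 95% intervals of -0.10 to 0.30 for CCNE1 and 0.0089 to 0.33 for CCNE2 (adjusted p = 0.106, edgeR). CCNE2 shares 37.0% of its exon bases with INTS8 on the opposite strand, so that its counts are uncertain.

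Of the cyclin D kinases, CDK4 had 79.95, 78.8, 86.00 and 82.5 CPM with c-di-GMP, against 77.6, 77.4 and 75.3 CPM with vehicle and 36.5 CPM in vehicle library 3. Its c-di-GMP libraries were the 4 highest, by 0.09 on the log2 scale (adjusted p = 0.159, edgeR) and 0.16 ± 0.039 (SE, edgeR, adjusted p = 0.00507) after the GC correction, a call kept in all 7 leave-out fits. CDK4 shares 43.2% of its exon bases with TSPAN31 on the opposite strand. CDK6, the other kinase, had 128, 138, 119.8 and 131 CPM with c-di-GMP, against 116, 123 and 129.6 CPM with vehicle and 51.1 CPM in vehicle library 3. Its groups overlapped, with a 95% interval of -0.03 to 0.17.

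Of the 5 origin licensing genes, 3 rose and 0 fell as counted, beside 13.5% and 16.2% of all genes. After the GC correction 3 were higher, beside 8.58% of all genes, and 1 with the length trend removed too, beside 7.43%. GMNN, geminin, the inhibitor of CDT1 (chr6:24774931-24786099, plus strand), had 79.9, 72.2, 84.2 and 75.8 CPM with c-di-GMP, against 58.03, 65.05 and 66.6 CPM with vehicle and 287 CPM in vehicle library 3. The c-di-GMP libraries lay above vehicle libraries 1, 2 and 4 and far below vehicle library 3. Its log2 fold change was 0.30 ± 0.056 (SE, edgeR, adjusted p = 0.000299), and 0.22 ± 0.049 (SE, edgeR, adjusted p = 0.00309) after the GC correction, while with the length trend also removed the adjusted p was 0.0901.

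CDC6, the loader of the MCM helicase (chr17:40287633-40304657, plus strand), had 119, 114, 116 and 116 CPM with c-di-GMP, against 100.4, 104 and 97.3 CPM with vehicle and 95.9 CPM in vehicle library 3. The 4 c-di-GMP libraries were the highest of the 8, and vehicle library 3 lay close to the other vehicle libraries. The log2 fold change was 0.20 ± 0.043 (SE, edgeR, adjusted p = 0.00102), and the rise passed the threshold in all 3 fits of the 7 libraries. It was lost in 1 of the 7 GC-corrected leave-out fits, the one without vehicle library 4. ORC6, the smallest subunit of the origin recognition complex, had 36.9, 35.2, 35.6 and 33.5 CPM with c-di-GMP, against 31.8, 29.99 and 29.3 CPM with vehicle and 46.7 CPM in vehicle library 3. It rose by 0.21 on the log2 scale (adjusted p = 0.00898, edgeR) and lay above vehicle libraries 1, 2 and 4 in every c-di-GMP library. After the GC correction its adjusted p was 0.0261, a call kept in 3 of the 7 leave-out fits, and 0.182 with the length trend removed too.

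ORC1, the ATPase subunit of that complex, had 26.3, 26.8, 26.7 and 26.2 CPM with c-di-GMP, against 24.3, 25.6 and 25.04 CPM with vehicle and 14.6 CPM in vehicle library 3. CDT1, the partner of CDC6 in loading, had 45.3, 39.5, 42.3 and 40.8 CPM with c-di-GMP, against 57.9, 41.99 and 44.8 CPM with vehicle and 61.8 CPM in vehicle library 3. ORC1 was highest in the 4 c-di-GMP libraries by a margin that did not pass (adjusted p = 0.33, edgeR), and CDT1, at 64.9% GC, overlapped between groups and changed sign, at -0.20 as counted and 0.14 after the GC correction, with neither past the threshold. The summed level of the 5 licensing genes was 287.7 to 306.9 CPM with c-di-GMP, against 263 to 272.4 CPM in vehicle libraries 1, 2 and 4 and 506.3 CPM in vehicle library 3.

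**Figure D3:**
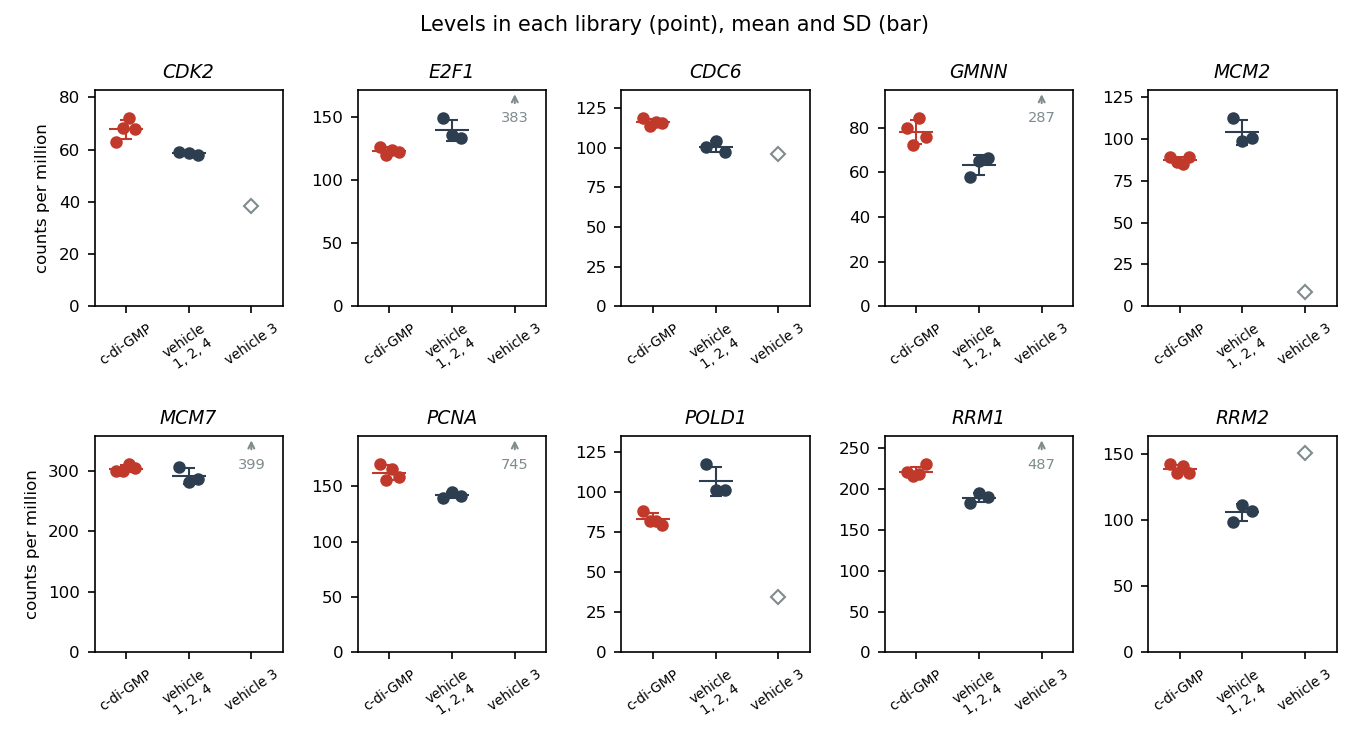
CPM in each library (points), with mean and SD (bars), for 10 genes of the set, c-di-GMP left of vehicle libraries 1, 2 and 4, and vehicle library 3 as an open diamond or, where it is off the axis, as its value beside an arrow. CDK2, CDC6, GMNN, PCNA, RRM1 and RRM2 are higher in every c-di-GMP library than in vehicle libraries 1, 2 and 4, E2F1, MCM2 and POLD1 are lower, and MCM7 overlaps.

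In the replicative helicase 2 of 11 genes (18.2%) rose and 1 (9.09%) fell as counted, near the 13.5% and 16.2% of all genes. After the GC correction 2 were higher, beside 8.58% of all genes. MCM2, a subunit of the MCM ring (chr3:127598223-127622436, plus strand), had 88.8, 85.9, 85.1 and 88.9 CPM with c-di-GMP, against 112, 98.5 and 100.5 CPM with vehicle and 8.40 CPM in vehicle library 3. It was lower in every c-di-GMP library than in vehicle libraries 1, 2 and 4, while vehicle library 3 held 12.4-fold less than their mean. The log2 fold change was -0.25 ± 0.049 (SE, edgeR, adjusted p = 0.000353) over 7 libraries, -0.09 ± 0.036 (SE, edgeR, adjusted p = 0.0906) after the GC correction, and 0.12 ± 0.62 over 8 libraries. An antisense gene, AC023593.1, covers 22.7% of its exon bases, and counts from either strand cannot be told apart if the counting ignored strand, which is not given.

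Of the other ring subunits, MCM6 had 108, 114, 112 and 114 CPM with c-di-GMP, against 97.8, 105 and 100.1 CPM with vehicle and 122 CPM in vehicle library 3. Its c-di-GMP libraries were above vehicle libraries 1, 2 and 4, and it rose by 0.14 on the log2 scale (adjusted p = 0.0166, edgeR) but stood at 0.054 after the GC correction. MCM4 had 202, 200.2, 196 and 192 CPM with c-di-GMP, against 189, 186 and 176 CPM with vehicle and 227 CPM in vehicle library 3. Its log2 fold change of 0.10 missed the threshold (adjusted p = 0.0691, edgeR), although the c-di-GMP libraries lay above vehicle libraries 1, 2 and 4.

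MCM7 (chr7:100092728-100101940, minus strand) had 299, 299, 310.4 and 304 CPM with c-di-GMP, against 306, 282 and 286 CPM with vehicle and 399 CPM in vehicle library 3. Its groups overlapped as counted, at 0.05 on the log2 scale, and after the GC correction its log2 fold change was 0.20 ± 0.031 (SE, edgeR, adjusted p = 4.27e-05), a call kept in all 7 leave-out fits. MCM3, at 366 to 375 CPM with c-di-GMP and 352 to 377 CPM in vehicle libraries 1, 2 and 4, and MCM5, at 103 to 106 CPM against 104 to 115 CPM, overlapped between groups.

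Of the 5 helicase activators, GINS1 alone rose as counted. GINS1 had 53.9, 52.6, 56.8 and 54.3 CPM with c-di-GMP, against 48.3, 50.6 and 46.9 CPM with vehicle and 93.3 CPM in vehicle library 3. It rose by 0.16 on the log2 scale (adjusted p = 0.0239, edgeR), with c-di-GMP libraries above vehicle libraries 1, 2 and 4, but kept its call in 3 of 7 leave-out fits. MCM10, a firing factor that binds the ring, had 64.04, 64.6, 66.8 and 63.2 CPM with c-di-GMP, against 59.5, 60.7 and 57.6 CPM with vehicle and 40.7 CPM in vehicle library 3. GINS3 had 11.9, 13.1, 12.3 and 12.3 CPM with c-di-GMP, against 9.88, 11.2 and 11.04 CPM with vehicle and 29.1 CPM in vehicle library 3. For both genes the 4 c-di-GMP libraries were above vehicle libraries 1, 2 and 4 without passing the threshold (adjusted p = 0.0589 for MCM10 and 0.0821 for GINS3, edgeR). CDC45, which bridges the ring and GINS, had 38.5, 37.98, 39.6 and 38.1 CPM with c-di-GMP, against 35.3, 34.9 and 35.5 CPM with vehicle and 76.4 CPM in vehicle library 3. It did not pass as counted (adjusted p = 0.0899, edgeR) and passed after the GC correction (0.16, adjusted p = 0.028), in 1 of the 7 GC-corrected leave-out fits. GINS2, the remaining subunit listed, overlapped between groups, with c-di-GMP libraries at 19.5 to 22.5 CPM and vehicle libraries 1, 2 and 4 at 17.99 to 20.4 CPM.

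At the fork, 6 of 14 genes rose and 2 fell, beside 13.5% and 16.2% of all genes. With the GC correction 5 rose, beside 8.58% of all genes, and 3 with the length trend removed too, beside 7.43%. PCNA, the sliding clamp (chr20:5114953-5126626, minus strand), had 169.8, 156, 166 and 158 CPM with c-di-GMP, against 139, 145 and 141 CPM with vehicle and 745 CPM in vehicle library 3. Every c-di-GMP library was above vehicle libraries 1, 2 and 4, and vehicle library 3 held 5.25-fold more than their mean. The log2 fold change was 0.19 ± 0.043 (SE, edgeR, adjusted p = 0.00151) and 0.13 ± 0.036 (SE, edgeR, adjusted p = 0.014) after the GC correction, a call kept in 4 of the 7 leave-out fits, with an adjusted p of 0.642 once the length trend was removed too.

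The clamp loader was measured through RFC2, RFC3, RFC4 and RFC5. RFC4 had 58.1, 58.6, 58.6 and 60.1 CPM with c-di-GMP, against 51.7, 51.5 and 48.7 CPM with vehicle and 231 CPM in vehicle library 3. It rose by 0.21 on the log2 scale (adjusted p = 0.00221, edgeR) and by 0.15 after the GC correction (adjusted p = 0.0179, kept in 5 of the 7 leave-out fits), with no overlap among the 7 libraries. RFC3 had 45.3, 43.3, 44.5 and 44.2 CPM with c-di-GMP, against 34.9, 39.1 and 36.2 CPM with vehicle and 39.7 CPM in vehicle library 3. Its 4 c-di-GMP libraries were the highest of the 8, with a log2 fold change of 0.27 ± 0.057 (SE, edgeR, adjusted p = 0.000988) and 0.14 ± 0.050 (SE, edgeR, adjusted p = 0.0534) after the GC correction. RFC2 and RFC5 overlapped between groups as counted, at 0.09 and 0.13 on the log2 scale.

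Polymerase subunits went both ways as counted. POLD1, the catalytic subunit of polymerase delta (chr19:50384204-50418016, plus strand), had 88.4, 82.1, 81.8 and 79.2 CPM with c-di-GMP, against 117, 101 and 101 CPM with vehicle and 34.8 CPM in vehicle library 3. It fell the most of the set, with a log2 fold change of -0.37 ± 0.053 (SE, edgeR, adjusted p = 1.58e-05), and every c-di-GMP library was below vehicle libraries 1, 2 and 4. At 64.97% GC it is the richest of the 45 genes, and after the GC correction the log2 fold change was -0.02 ± 0.037 (SE, edgeR, adjusted p = 0.754), with overlapping groups. POLE, the catalytic subunit of polymerase epsilon, overlapped between groups, at 123 to 134 CPM with c-di-GMP and 129 to 149.8 CPM in vehicle libraries 1, 2 and 4.

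The primase and polymerase alpha, which start each strand, were higher as counted. POLA1 had 64.9, 66.6, 63.3 and 64.2 CPM with c-di-GMP, against 54.8, 60.1 and 55.9 CPM with vehicle and 26.9 CPM in vehicle library 3. PRIM1 had 15.7, 13.3, 14.5 and 12.7 CPM with c-di-GMP, against 10.4, 12.2 and 10.3 CPM with vehicle and 5.18 CPM in vehicle library 3. For both genes all 4 c-di-GMP libraries were above all 4 vehicle libraries, and both rose over the 7 libraries, by 0.18 (adjusted p = 0.00802) and 0.35 (adjusted p = 0.00666) on the log2 scale by edgeR. After the GC correction neither passed (adjusted p = 0.167 for POLA1 and 0.0804 for PRIM1).

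LIG1, the ligase that joins Okazaki fragments, had 75.7, 76.4, 76.98 and 76.6 CPM with c-di-GMP, against 94.1, 83.1 and 78.7 CPM with vehicle and 81.8 CPM in vehicle library 3. It fell by 0.16 on the log2 scale (adjusted p = 0.0222, edgeR), a call lost without vehicle library 1 or c-di-GMP library 1, and stood at -0.036 after the GC correction. RPA1, the large subunit of the single-strand binding protein, had 201, 209, 215 and 214 CPM with c-di-GMP, against 190.4, 194 and 185 CPM with vehicle and 279.6 CPM in vehicle library 3. It rose in all 3 fits of 7 libraries, by 0.14 as counted (adjusted p = 0.0121, edgeR), and its c-di-GMP libraries lay above vehicle libraries 1, 2 and 4. The call was lost without vehicle library 4 or c-di-GMP library 4, and after the GC correction it was kept in 4 of the 7 leave-out fits. RPA2, RPA3 and the flap nuclease FEN1 did not pass as counted, with 95% intervals of -0.01 to 0.20, -0.01 to 0.27 and -0.03 to 0.16, and FEN1 passed after the GC correction (0.14, adjusted p = 0.00708).

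Nucleotide supply held the gene with the smallest p of the set. RRM2, the small subunit of ribonucleotide reductase whose level peaks in S phase (chr2:10120698-10131419, plus strand), had 142, 136, 141 and 136 CPM with c-di-GMP, against 98.9, 111 and 107 CPM with vehicle and 151 CPM in vehicle library 3. Every c-di-GMP library lay above vehicle libraries 1, 2 and 4, and vehicle library 3 was above all of them. The log2 fold change was 0.38 ± 0.046 (SE, edgeR, adjusted p = 1.42e-06), a rise of 30.6%, and 0.33 ± 0.037 (SE, edgeR, adjusted p = 1.46e-06) after the GC correction. AC007240.1, a gene on the same strand, covers 20.2% of its exon bases.

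RRM1, the large subunit of the same enzyme (chr11:4094707-4138876, plus strand), had 221, 217, 219 and 230.5 CPM with c-di-GMP, against 184, 196 and 190.0 CPM with vehicle and 487 CPM in vehicle library 3. It lay higher in each c-di-GMP library than in vehicle libraries 1, 2 and 4, with a log2 fold change of 0.22 ± 0.042 (SE, edgeR, adjusted p = 0.000296) and 0.14 ± 0.032 (SE, edgeR, adjusted p = 0.00486) after the GC correction. DUT, the dUTP pyrophosphatase that keeps uracil out of DNA, had 64.04, 50.9, 58.3 and 62.4 CPM with c-di-GMP, against 46.8, 52.8 and 49.5 CPM with vehicle and 187 CPM in vehicle library 3. DUT rose by 0.24 on the log2 scale (adjusted p = 0.00656, edgeR) although c-di-GMP library 2 lay among the vehicle libraries. Its call was lost with the GC correction, with the GC and length correction and in limma on the FPKM values. Of its 8 named pseudogene copies 1 is listed with counts of its own.

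TYMS, thymidylate synthase, had 77.3, 78.1, 73.8 and 77.3 CPM with c-di-GMP, against 78.4, 71.98 and 71.4 CPM with vehicle and 14.1 CPM in vehicle library 3. TK1, thymidine kinase of the salvage route (chr17:78174075-78187233, minus strand), had 182, 155, 178 and 174 CPM with c-di-GMP, against 189, 170.2 and 177 CPM with vehicle and 454 CPM in vehicle library 3. Both overlapped between groups, TYMS with a 95% interval of -0.05 to 0.15 and TK1 with one of -0.16 to 0.05, and ENOSF1 on the opposite strand covers 39.1% of the exon bases of TYMS. TK1, at 62.8% GC, turned to 0.23 ± 0.039 (SE, edgeR, adjusted p = 0.00019) after the GC correction, a call kept in all 7 leave-out fits. The summed level of the 5 genes was 636.3 to 686 CPM with c-di-GMP, against 594.8 to 601.9 CPM in vehicle libraries 1, 2 and 4 and 1293 CPM in vehicle library 3. The sums of the other 3 roles overlapped between groups: 1361 to 1408 CPM with c-di-GMP against 1379 to 1405 CPM in vehicle libraries 1, 2 and 4 for the G1/S regulators, 1356 to 1381 against 1291 to 1368 CPM for the helicase, and 1220.4 to 1246 against 1139 to 1222 CPM for the fork. In vehicle library 3 these sums were 1118, 1471 and 3269.9 CPM in the same order of roles.

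**Figure D4:**
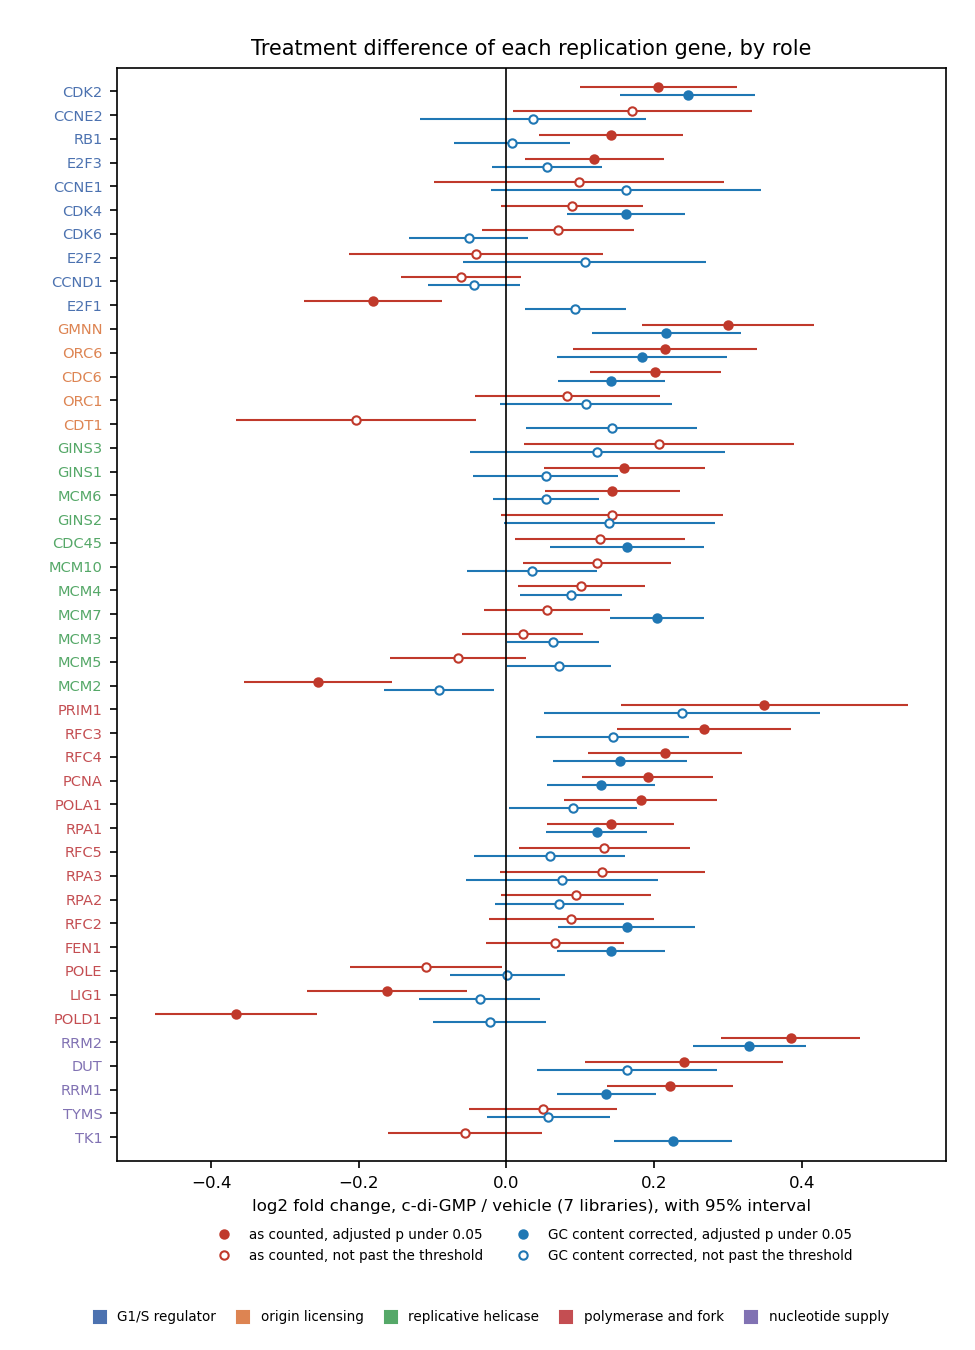
Log2 fold change (c-di-GMP over vehicle, 7 libraries, x axis) with its 95% interval for each of the 45 genes, grouped by role and sorted within it, as counted (red) and after the GC correction (blue), filled where the adjusted p was under 0.05. The blue points lie mostly to the right of 0, with RRM2 at 0.33 and CDK2 at 0.25 the highest, and the red falls of E2F1, MCM2, POLD1 and LIG1 are not filled in blue.

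Differences between the 45 genes in level were far larger than any with treatment. On the deposited FPKM scale, which divides by gene length, CCND1 was highest at 155 ± 3.06 FPKM with c-di-GMP and 160 ± 2.64 FPKM with vehicle (SD, n = 4 and n = 3, vehicle library 3 left out). PCNA followed at 110 ± 4.37 and 95.3 ± 1.96 FPKM, then MCM3 at 101 ± 1.1 and 98.3 ± 3.51 FPKM and TK1 at 92.4 ± 6.39 and 94.9 ± 5.08 FPKM. PCNA lay apart from MCM3 with c-di-GMP by more than their SD, and with vehicle PCNA, MCM3 and TK1 were within it. The lowest was GINS3, at 2.42 ± 0.0986 FPKM with c-di-GMP and 2.07 ± 0.14 FPKM with vehicle, next to E2F2 at 2.61 ± 0.151 and 2.65 ± 0.178 FPKM. Cyclin E2 (4.43 ± 0.289 and 3.89 ± 0.372 FPKM) and cyclin E1 (5.68 ± 0.585 and 5.24 ± 0.648 FPKM) stood far below cyclin D1, and CDK6 (10.5 ± 0.614 and 9.9 ± 0.543 FPKM) below CDK4 (25.8 ± 0.977 and 24 ± 0.421 FPKM).

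**Figure D5:**
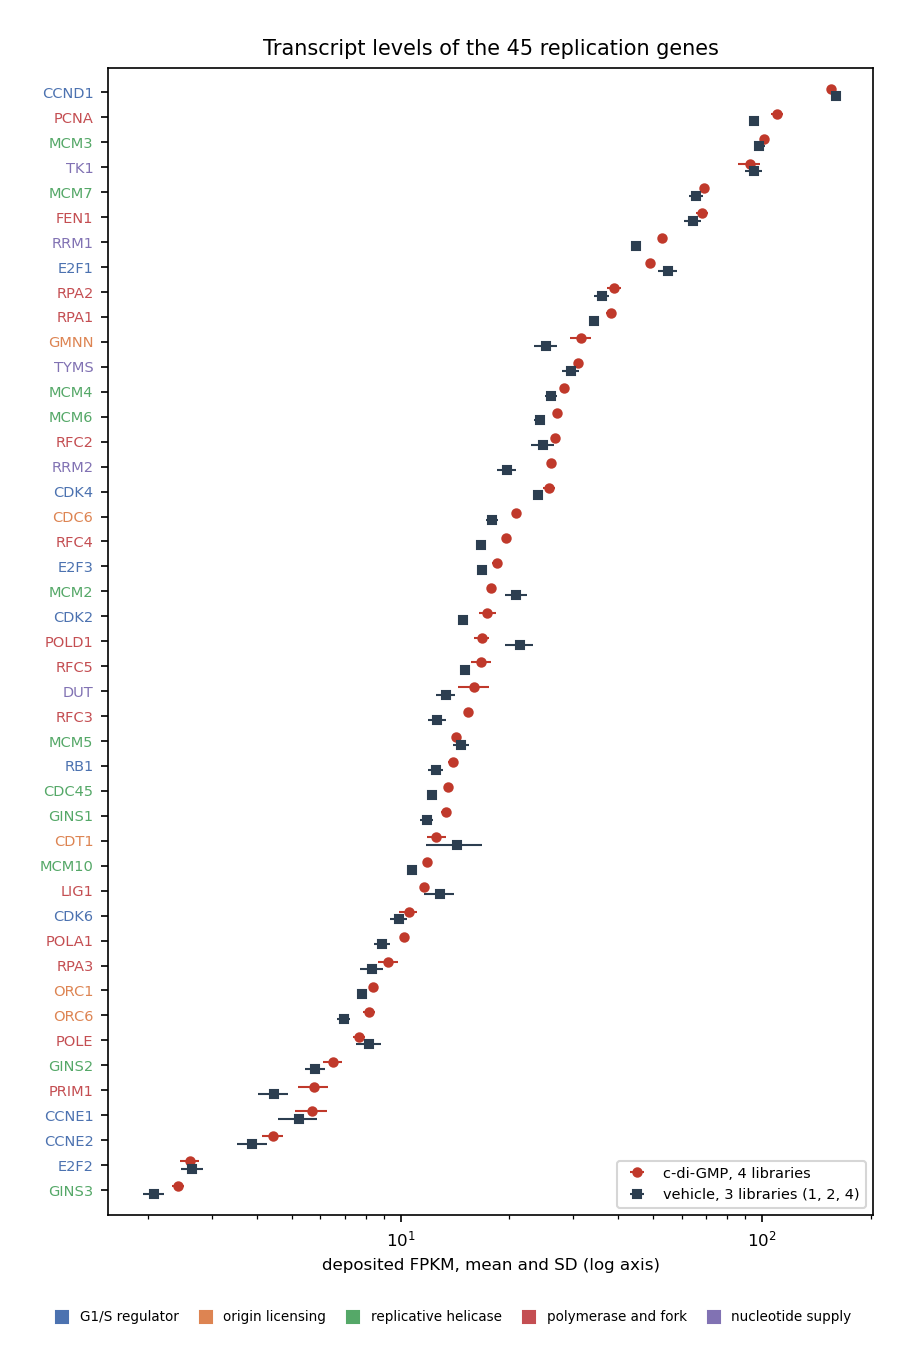
Mean deposited FPKM with SD (log x axis) of the 45 genes in order of level, c-di-GMP (red circles, 4 libraries) above vehicle (dark squares, libraries 1, 2 and 4), label colour giving the role. Levels run from GINS3 at 2.42 to CCND1 at 155 FPKM with c-di-GMP, and the groups differ by little beside that range.

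Vehicle library 3 held the same genes in quite other proportions. It lay outside the range of the other 7 libraries for 40 of the 45 genes (88.9%), as for 88.9% of all genes at 1 CPM or more. It was above the mean of the other vehicle libraries for 26 genes and below for 19 after TMM scaling, and above for 14 and below for 31 on library totals. The highest ratios, as log2 after TMM and on totals, were those of RPA3 (4.15 and 3.47), FEN1 (2.48 and 1.81), PCNA (2.39 and 1.72), RFC4 (2.19 and 1.51) and GMNN (2.18 and 1.51). The lowest were those of MCM2 (-3.63 and -4.30), RB1 (-2.57 and -3.25), TYMS (-2.39 and -3.06), CCNE2 (-2.20 and -2.88) and POLD1 (-1.61 and -2.29). Subunits of 1 complex parted in it: RPA3 had 483 CPM in vehicle library 3 against 26.01 to 29.5 CPM in the other vehicle libraries, where RPA2 had 114 against 69.9 to 76.7 CPM. Likewise MCM2 had 8.40 CPM against 98.5 to 112 CPM, where MCM7 had 399 against 282 to 306 CPM. Transcript length ran against the log2 ratio of vehicle library 3 at a Spearman correlation of -0.528 across the 45 genes, GC content at 0.028, and the part of either was not tested.

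A wider list of the same pathway, 81 genes listed of 83 chosen, was read beside the set. With all 8 libraries edgeR called 0 of the 81, while 7 had an unadjusted p under 0.05, against 6.23% of all genes. DESeq2 called 1 of the 71 it tested, lower. Over 7 libraries 32 rose and 10 fell (39.5% and 12.3%, against 13.5% and 16.2% of all genes), and after the GC correction 17 were higher and 3 lower (20.99% and 3.70%, against 8.58% and 6.62%). Without c-di-GMP library 4 as well, 16 rose and 9 fell, against 1354 and 2171 of 15527 genes. Without vehicle library 1, 22 rose and 6 fell, against 1551 and 1889 of 15906 genes. The 20 GC-corrected calls were 8 without vehicle library 1, against 1476 of 15906 genes, and 9 without c-di-GMP library 4, against 1712 of 15527 genes. In these fits the share of the list called in either direction was near that of all genes, but the calls lay mostly on the higher side. Without vehicle library 1, 8 of the 81 were higher and 0 lower, against 866 and 610 of 15906 genes. Without c-di-GMP library 4, 8 were higher and 1 lower, against 958 and 754 of 15527 genes. The calls numbered 13 without vehicle library 4 (1551 of 15914 genes) or c-di-GMP library 1 (1857 of 15557 genes). Fold changes and p-values of these genes are from the 7 libraries. The other licensing and firing genes had 11 of 16 higher and 1 lower, then 3 and 0 with the correction: CDC7, the kinase that fires origins, had 45.2, 44.6, 43.4 and 42.2 CPM with c-di-GMP, against 34.1, 36.5 and 35.4 CPM with vehicle and 75.8 CPM in vehicle library 3 and rose by 0.31 on the log2 scale (adjusted p = 0.000226, edgeR). MTBP and TOPBP1, which help load CDC45, rose by 0.32 and 0.22 (adjusted p = 0.000575 and 0.000854), and all 3 of these genes were higher after the correction too. RECQL4, a helicase with 65.5% GC, fell by 0.34 (adjusted p = 3.03e-05) and stood at 0.022 after the correction.

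Of the CDK inhibitors, 2 of 5 fell as counted and none rose, beside 16.2% and 13.5% of all genes. CDKN1C, p57, had 6.73, 8.58, 7.63 and 7.84 CPM with c-di-GMP, against 13.2, 12.2 and 10.9 CPM with vehicle and 18.3 CPM in vehicle library 3. It fell by 0.66 on the log2 scale (adjusted p = 3.87e-05, edgeR) and by 0.35 after the GC correction (adjusted p = 0.0177), with every c-di-GMP library below every vehicle library. CDKN1A, p21, had 111, 111, 109.6 and 111 CPM with c-di-GMP, against 134, 119.7 and 126 CPM with vehicle and 124 CPM in vehicle library 3. It fell by 0.20 (adjusted p = 0.00151) with c-di-GMP libraries below every vehicle library, and stood at -0.040 after the correction. CDKN1B, p27, and CDKN2C, p18, did not pass (log2 fold changes -0.10 and -0.15), CDKN2D, p19, passed as higher only after the correction (0.14, adjusted p = 0.0387), and CDKN2A and CDKN2B were not analysed here.

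The other G1/S regulators had 4 of 17 higher and 2 lower, then 1 and 0 with the correction, shares near or below those of all genes (13.5% and 16.2%, then 8.58% and 6.62%) except for the 23.5% higher as counted. LIN54, of the DREAM complex, E2F6, a repressor, and SKP2, of the ligase that degrades p27, rose by 0.23, 0.23 and 0.17, and CCNA2, cyclin A2, by 0.12 (adjusted p = 0.00916, 0.0131, 0.023 and 0.0378 by edgeR), none of them past the threshold after the correction. MYC, a driver of G1 entry, had 183, 176, 186 and 177 CPM with c-di-GMP, against 226, 187 and 194 CPM with vehicle and 71.1 CPM in vehicle library 3 and fell by 0.17 (adjusted p = 0.0166), then stood at -0.085. The other polymerase and fork genes had 10 of 27 higher and 3 lower, then 7 and 1. POLE3 and POLE4, subunits of polymerase epsilon, rose by 0.27 and 0.29 (adjusted p = 8.99e-05 and 0.00235), TOP2A, topoisomerase II alpha, by 0.23 (adjusted p = 0.000181), and all 3 were higher after the correction. CHTF18, of an alternative clamp loader, fell by 0.36 (adjusted p = 2.65e-05) and stood at -0.011. The other nucleotide supply genes had 7 of 16 higher and 2 lower, then 5 and 1: NME1, a nucleoside diphosphate kinase, rose by 0.40 (adjusted p = 9.44e-05) and was higher after the correction too, SAMHD1, a dNTP hydrolase, rose by 0.18 (adjusted p = 0.00455), and TK2, the mitochondrial thymidine kinase, fell by 0.22 (adjusted p = 0.00932) and remained lower after the correction.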

How the data were processed

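RNA was measured in 8 libraries, 4 of c-di-GMP-treated and 4 of vehicle-treated MDA-MB-231 cells. Per the labels' protocols, RNA was taken with TRIzol and libraries were made with the NEBNext Ultra RNA kit. The submitters' processing notes name DESeq2 1.20.0, featureCounts 1.5.0-p3, HISAT2 2.0.5, CASAVA 1.8 and fastp, without their roles or whether counting used strand. Those notes name the build mm10, but the gene identifiers are human and their positions match GENCODE v29 (GRCh38) for all 16383 genes. Coordinates, GC contents and overlaps given here come from that annotation.

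The authors deposited 1 table of raw counts per gene and 1 of FPKM (fragments scaled to gene length and to library size), each listing the genes with the highest totals. Counts were used for all tests and FPKM for levels between genes and for alternatives. Low genes were dropped with filterByExpr at a minimum count of 10 and a minimum total of 15. After TMM scaling, treatment was the only term in edgeR 4.0.16 (quasi-likelihood test, R 4.3.3), fitted over all genes, and the threshold was an adjusted p under 0.05. The fit was made once with the 8 libraries and once leaving vehicle library 3 out. Intervals are 95% intervals from the standard error.

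In the GC correction, each library's lowess trend (span 0.3) of gene deviations against longest-transcript GC content was an offset in the fit, and a trend on transcript length was added in a further fit. The alternatives were DESeq2 1.42.0, limma 3.58.1 (voom, with and without library quality weights), DESeq2 size factors, library totals, no filter, a stricter filter (1 CPM in every library of a group), log2(FPKM + 0.1) and log2(FPKM + 1) in limma, leaving out each library, and the replicate number as a block. No 2 libraries agreed within counting noise.

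All 45 genes are named. Values per library are given for genes past the threshold, for up to 6 of each role by smallest p in the 7-library fit and for 12 genes fixed by name, to which MCM7 and CDC45 were added because they passed after the GC correction. The genes of the set, the wider list, the 7-library comparison and the GC correction were chosen with earlier results of these data known.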

Additional observations from a re-analysis of the deposited data

Results flagged for a closer look

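In a group of 4 libraries, a library was flagged when its gap to the nearest other library, divided by the range of the group, passed Dixon's critical value at the 95% level. Of 90 groups examined (45 genes in 2 treatments) 27 were flagged, where chance flags about 1 in 20. Of these, 1 was in the c-di-GMP group: RPA2 was highest in c-di-GMP library 1 (ratio 0.868). The other 26 were in the vehicle group, and in each the library apart was vehicle library 3.

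Vehicle library 3 was the highest of its group for 17 genes, with ratios of 0.992 for RPA3, 0.991 for PCNA, 0.984 for RFC4 and for CDC45, 0.977 for FEN1, 0.963 for GMNN, 0.962 for GINS2, 0.961 for RRM1 and 0.957 for DUT. The ratios were 0.941 for RFC2, 0.936 for E2F1, 0.934 for TK1, 0.93 for GINS3, 0.918 for GINS1, 0.907 for RPA1, 0.859 for ORC6 and 0.846 for RPA2. It was the lowest for 9 genes, with ratios of 0.945 for CDK4, 0.94 for CDK2, 0.927 for CCND1, 0.895 for RB1, 0.891 for TYMS, 0.88 for ORC1, 0.868 for MCM2, 0.845 for MCM10 and 0.84 for POLA1.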

How the results depend on the processing

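Of the 45 genes, 0 passed with all 8 libraries. DESeq2 called 1 of the 40 it tested, and limma-voom with library quality weights 27 of the 45. The fit without vehicle replicate 3 called 21, so that leaving out 1 of the 8 libraries gave 0 to 21. Over all genes the 8-library counts were 0 with edgeR, 134 with DESeq2, 5430 with quality weights, and 0 to 4633 with 1 library left out. Over 7 libraries 21 passed (16 to 22 with a further library left out, 11 to 17 of them higher and 3 to 6 lower, with 11 higher without vehicle replicate 4), 28 were higher with quality weights, and 11 passed with the GC and length correction, all higher. The count of falls went to 0 with the GC correction and to 0 with the GC and length correction. Among all genes 4633 passed over 7 libraries (3440 to 4826 with 1 left out), 2378 with the GC correction and 2050 with the GC and length correction. The GC-corrected count of 15 was 8 to 17 with 1 library left out, 8 without vehicle replicate 4. Vehicle replicate 3 was above the mean of the other vehicle libraries for 26 of the 45 genes, and for 14 on library totals. The causes were not tested.

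Between the 8-library fit and the fit without vehicle replicate 3, the sign of the log2 fold change differed for 19 of the 45 genes. Of these 8 passed the threshold without it and, with 1 of the 8 libraries left out in turn, spanned 0: GMNN (-0.84 to 0.30), MCM2 (-0.25 to 0.33), GINS1 (-0.23 to 0.16), PCNA (-1.08 to 0.19), RFC4 (-0.91 to 0.21), RPA1 (-0.075 to 0.14), RRM1 (-0.39 to 0.22) and DUT (-0.71 to 0.24). With quality weights, of the genes passing there, signs reversed for GMNN (0.25), MCM2 (-0.21), CDC45 (0.12), GINS1 (0.19), PCNA (0.19), RFC4 (0.25), FEN1 (0.12), RPA1 (0.16), RPA2 (0.14), RRM1 (0.22) and DUT (0.26). Over 7 libraries the sign changed with the GC correction for 7 genes, of which E2F1 (0.093, and 0.066 with GC and length) had passed before it and TK1 (0.23 and 0.15) passed after it, while CDK6, E2F2, CDT1, MCM5 and POLE passed in neither.

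Deviations of same-numbered c-di-GMP and vehicle libraries from their group means correlated at -0.00034, 0.18, 0.12 and -0.058 for numbers 1 to 4. The vehicle mean includes vehicle library 3, which stood apart. For c-di-GMP library 2 the value was 0.18 with each of vehicle libraries 1, 2 and 4 and -0.19 with vehicle library 3. These correlations therefore cannot show whether the numbers pair the libraries. With the number as a replicate block 20 of the 45 genes passed over 7 libraries (15 higher, 5 lower) among 4093 genes in all, and over 8 libraries 0 of the 45 and 0 in all. Depth limits the lowest genes, of which GINS3, E2F2, CCNE1 and PRIM1 lay under 20 CPM.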
